A study of Mus musculus with 6 samples.

Results

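The proteasome genes of the mouse were followed here in RNA sequencing of 6 whole hearts of the C57BL/6 background, 3 from Arrdc4 knockout mice generated with CRISPR-Cas9 and 3 from wild-type mice. Members were the protein-coding genes whose symbol begins with Psm, a letter from a to g and a number, and the table of 49315 genes held 50 of them. One match by name, Psmc3ip, codes for a DNA recombination factor and no part of the proteasome, so that 49 proteasome genes remained, and 4 pseudogenes were left out with 1 read among them in all 6 libraries. The labels call the knockout line neither homozygous nor heterozygous and name no treatment, and the sources used here give no age, sex or litter. The design sets knockout hearts beside wild-type hearts to find transcripts that change on loss of Arrdc4, an alpha-arrestin that binds ubiquitin ligases of the NEDD4 type.

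The proteasome degrades proteins that carry a chain of ubiquitin. Its core is a barrel of outer alpha and inner beta rings, in which Psmb5, Psmb6 and Psmb7 supply the cutting sites, and its cap, the regulatory particle, holds a ring of ATPases (the Psmc genes) that unfold substrates beside non-ATPase subunits (the Psmd genes) that bind them and remove the ubiquitin. Under interferon, and constantly in many blood-borne immune cells, Psmb8, Psmb9 and Psmb10 take the places of Psmb5, Psmb6 and Psmb7 and form the immunoproteasome, which favours peptides for display on MHC class I. In heart muscle the proteasome clears worn contractile proteins, and a shortfall of proteasome function makes cells raise subunit genes through the transcription factor Nfe2l1.

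Libraries held 31529317 to 41036626 counts in knockout hearts and 29974501 to 37518160 in wild-type hearts, and the 50 genes took 0.378% to 0.449% and 0.379% to 0.443% of them. Levels are given as CPM, read counts relative to a library size scaled by TMM. Heart identity was clear from Myh6, the alpha myosin heavy chain, at 9167 to 29523 CPM in knockout and 10042 to 26859 CPM in wild-type hearts. Arrdc4 itself held 5, 1 and 2 reads in knockout hearts against 349, 307 and 281 in wild-type hearts (log2 fold change -6.93, adjusted p = 0.00226, edgeR quasi-likelihood test). Knockout heart 2 and wild-type heart 3 stood apart from the other 4 hearts and resembled each other: the deviations of all 14508 tested genes from their group means correlated at 0.684 between them, and both stood above, or both below, all 4 other hearts for 29.4% and 29.0% of genes. Each result is therefore given by heart.

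No proteasome gene passed the test between knockout and wild-type hearts. Of the 50 genes 49 had enough reads to be tested, counting Psmc3ip, and 0 of these 49 were called at an adjusted p under 0.05 by edgeR's quasi-likelihood test, where 0.00689% of all tested genes (Arrdc4 alone) were. DESeq2 and limma-voom called 0 as well, where they called 0.00390% and 0.00689% of all genes. In each of the 3 tools 0 of 49 had an unadjusted p under 0.05, against 1.23% of all genes in edgeR and limma-voom and 0.927% in DESeq2. In no member did the 3 knockout values clear the 3 wild-type values, against 4.07% of all genes. The median log2 fold change of the members was -0.04, with 10 above 0 and 39 below, beside a median of 0.01 over all genes, of which 52.3% were above 0. Scaling moved that split to 7 above 0 with DESeq2's size factors and 16 above 0 with library size alone.

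The fit of all 6 hearts bounded how large a genotype difference could be, and the bounds are given for that fit alone. Without knockout heart 2, for one, the log2 fold change of Psma6 was -0.54 (SE 0.28). A 2-fold difference lay outside the 95% interval for 48 of 49 members, against 76.5% of all tested genes, and a 1.5-fold difference lay outside it for 25, against 39.7%. The exception at 2-fold was Psma8, the alpha subunit of male germ cells, which had 15 to 26 reads in knockout and 15 to 35 in wild-type hearts. The sign of the small median rested on single hearts: it was 0.05 without knockout heart 1, 0.04 without knockout heart 3 and 0.12 without wild-type heart 3, with 33, 31 and 37 members above 0. It was -0.24 without knockout heart 2, -0.07 without wild-type heart 1 and -0.14 without wild-type heart 2.

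**Figure D1:**
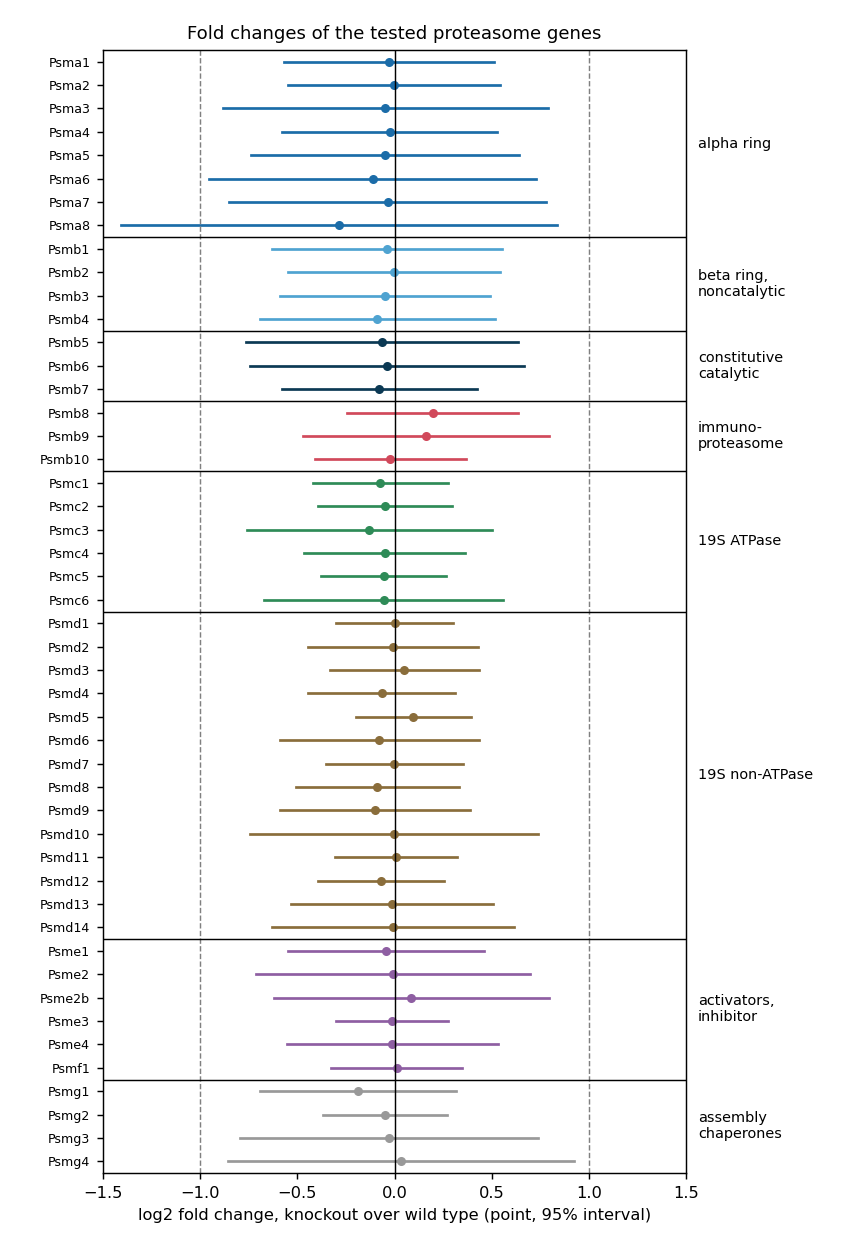
Log2 fold change of knockout over wild-type hearts (x axis) for the 48 tested proteasome genes (y axis), with the point at the estimate, the line as its 95% interval and dashed lines at a 2-fold difference in either direction. Every interval crosses 0, and the interval of Psma8 alone reaches past a 2-fold difference.

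The alpha ring, which gates entry to the barrel, overlapped between genotypes in every gene and spread widely within each. Its genes Psma1 to Psma7 had log2 fold changes from -0.11 to -0.0045, all 7 with intervals inside a 2-fold difference. Psma6 (chromosome 12, 55384222 to 55418454, plus strand, GRCm38), the ring's most abundant transcript in CPM, stood at 101, 206 and 100.2 CPM in knockout hearts against 134, 103 and 204 CPM in wild-type hearts. The highest heart of each genotype, knockout heart 2 and wild-type heart 3, stood about level, and the groups overlapped fully (log2 fold change -0.11, SE 0.36, adjusted p = 1, edgeR). Psma8 (chromosome 18, 14706151 to 14762301, plus strand), at 0.350, 0.896 and 0.471 CPM in knockout hearts against 0.475, 0.533 and 1.04 CPM in wild-type hearts, had the smallest p of the ring (log2 fold change -0.29, SE 0.48, unadjusted p = 0.568). The germ cell markers Ddx4 and Sycp3 together came to at most 0.482 CPM in knockout and 0.388 CPM in wild-type hearts.

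The noncatalytic beta subunits Psmb1 to Psmb4 overlapped between genotypes as well. Psmb4 (chromosome 3, 94884093 to 94886961, minus strand), the most abundant of them and the one with the smallest p, stood at 109, 177 and 113 CPM in knockout hearts against 128, 114 and 183 CPM in wild-type hearts. Its log2 fold change was -0.09 (SE 0.26, adjusted p = 1, edgeR), and the other 3 lay between -0.05 and -0.0046.

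The cutting subunits of the standard proteasome were among the most abundant members for their length, and their immune counterparts were far lower. RefSeq's promoter windows on GRCm38.p6 are shown for Psmb5, Psmb6, Psmb9 and Psmb10 as examples from the exchangeable pairs; those of Psmb7 and Psmb8 are not shown. Capitals mark matches, on either strand, to the antioxidant response element bound by Nfe2l1 and Nfe2l2 (TGACNNNGC) or to the CCAAT box (CCAAT). Bases inside annotated exons are left out, so that the stretches differ in length, and for Psmb9, whose window lies in annotated exons, only 30 bases around the match nearest the start are given.
Psmb5 (chr14:54618023-54618245, minus strand): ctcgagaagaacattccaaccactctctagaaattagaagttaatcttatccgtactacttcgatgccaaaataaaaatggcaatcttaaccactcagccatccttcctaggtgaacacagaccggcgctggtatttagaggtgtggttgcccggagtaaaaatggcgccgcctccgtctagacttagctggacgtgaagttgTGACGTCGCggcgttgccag
Psmb6 (chr11:70525107-70525356, plus strand): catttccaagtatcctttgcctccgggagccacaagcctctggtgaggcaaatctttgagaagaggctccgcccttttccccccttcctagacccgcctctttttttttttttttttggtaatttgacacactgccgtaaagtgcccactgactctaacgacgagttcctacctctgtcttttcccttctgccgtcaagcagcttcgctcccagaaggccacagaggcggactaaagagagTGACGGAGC
Psmb10 (chr8:105938445-105938642, minus strand): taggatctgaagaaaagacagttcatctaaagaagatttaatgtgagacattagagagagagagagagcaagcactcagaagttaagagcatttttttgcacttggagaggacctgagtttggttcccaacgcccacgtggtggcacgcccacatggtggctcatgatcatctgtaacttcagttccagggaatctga
Psmb9 (chr17:34187331-34187360, minus strand): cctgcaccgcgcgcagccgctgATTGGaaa
The antioxidant response element stood 9 bases before the start of Psmb6 and 47 bases before that of Psmb5.

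RefSeq windows of 300 bases, 250 before and 50 after the start, were found for 41 of the 49 proteasome genes, 44 windows in all. The antioxidant response element was in 6 of the 44 (13.6%), those of Psmb5, Psmb6, Psmc6, Psmd9, Psmd12 and Psme4, beside 12.4% of all 32851 windows of the genome. The CCAAT box was in 31.8% beside 37.4%, and the TATA box (TATAAA) in 9.09% beside 13.6%. The interferon-stimulated response element was in 5 of 44 (11.4%) beside 3.44%, in windows of Psmb3, Psmd4, Psmd9, Psme1 and Psmg4. These are letter matches in short windows.

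Psmb5, the site that cuts after hydrophobic residues, stood at 87.5, 160.2 and 88.7 CPM in knockout hearts against 111, 89.7 and 151 CPM in wild-type hearts (chromosome 14, 54614119 to 54618022, minus strand). Psmb6, which cuts after acidic residues, stood at 98.3, 179 and 106 CPM in knockout hearts against 118, 99.96 and 176 CPM in wild-type hearts (chromosome 11, 70525367 to 70527858, plus strand). Psmb7, which cuts after basic residues, stood at 124, 191 and 127 CPM in knockout hearts against 146, 139 and 181 CPM in wild-type hearts (chromosome 2, 38588036 to 38644087, minus strand). In all 3 genes knockout heart 2 and wild-type heart 3 were the highest, and the log2 fold changes were -0.07 (SE 0.30), -0.04 (SE 0.30) and -0.08 (SE 0.21), with an adjusted p of 1 each in edgeR.

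The immunoproteasome genes had low levels, and in Psmb8 the hearts stood in another order. Psmb8 (chromosome 17, 34197721 to 34201454, plus strand) stood at 15.2, 12.8 and 10.1 CPM in knockout hearts against 11.5, 9.88 and 11.8 CPM in wild-type hearts, and knockout heart 1 was the highest. Psmb9 (chromosome 17, 34181987 to 34187764, minus strand) stood at 7.95, 9.03 and 5.26 CPM in knockout hearts against 6.55, 4.98 and 8.36 CPM in wild-type hearts. Psmb10 (chromosome 8, 105935735 to 105938444, minus strand) stood at 33.6, 40.2 and 28.2 CPM in knockout hearts against 35.1, 31.4 and 37.0 CPM in wild-type hearts. Psmb9 and Psmb10 had both knockout heart 2 and wild-type heart 3 above the other 4 hearts, as the constitutive genes did, and Psmb8 did not. Log2 fold changes were 0.20 for Psmb8 (SE 0.19), 0.16 for Psmb9 (SE 0.27) and -0.02 for Psmb10 (SE 0.17), and each adjusted p was 1 in edgeR. Psmb8 shares 14.7% of its exon bases with an antisense gene and Psmb9 5.79% with Tap1 on the other strand, so that reads there cannot be assigned without a stated strand setting. The same limit holds for Psmb7, which shares 11.8% with Nek6 on the other strand. Psmb5 shares 12.1% with the microRNA gene Mir686 on its own strand, and the treatment of shared reads is not stated.

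Per kilobase of transcript, Psmb8 reached 9.57%, 4.42% and 6.28% of Psmb5 in knockout hearts against 5.75%, 6.08% and 4.32% in wild-type hearts. Psmb9 reached 4.78%, 2.97% and 2.93% of Psmb6 in knockout hearts against 3.27%, 2.94% and 2.80% in wild-type hearts. Psmb10 reached 23.9%, 18.7% and 19.7% of Psmb7 in knockout hearts against 21.2%, 20.04% and 18.1% in wild-type hearts. Knockout heart 1 was the highest of the 6 hearts in all 3 ratios, and the other 5 overlapped. On the log2 scale the knockout mean exceeded the wild-type mean by 0.27 for Psmb8 over Psmb5, by 0.21 for Psmb9 over Psmb6 and by 0.06 for Psmb10 over Psmb7. The 2-sided exact permutation test gave p = 0.4, 0.6 and 0.7, and 0.7 for each when adjusted over the 3 ratios, where 3 hearts against 3 can reach 0.10 at the least. Without knockout heart 1 the differences were -0.02, -0.02 and -0.04, and without wild-type heart 3 that of Psmb10 over Psmb7 was -0.00023; without knockout heart 2 that of Psmb8 over Psmb5 was 0.54.

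**Figure D2:**
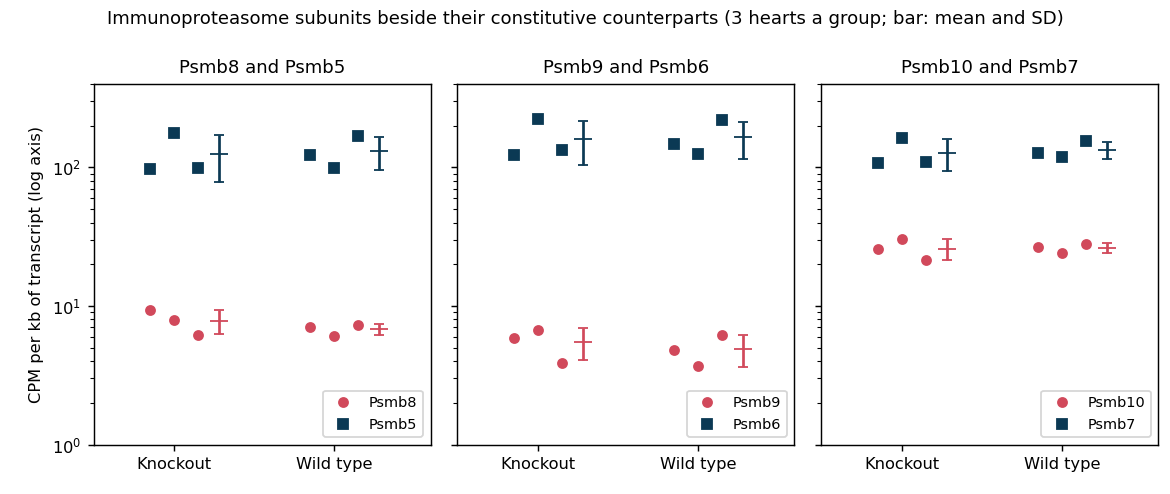
CPM per kilobase of transcript on a log axis for each immunoproteasome gene (circles) and its constitutive counterpart (squares), 1 point a heart in replicate order, with the mean and SD of 3 hearts beside the points of each genotype. The immune forms lie below their counterparts in every heart, by the widest margin for Psmb9 and Psmb6, and the genotypes overlap in all 6 genes.

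Knockout heart 1 was also the highest of the 6 hearts in the summed markers of macrophages, leukocytes in general, fibroblasts, endothelium and epicardium, but not in those of lymphocytes, smooth muscle, blood or cardiomyocytes. Abundant markers weigh most in a sum. By the markers' median deviation from each gene's mean on the log2 scale, knockout heart 1 was also the highest for smooth muscle with pericytes (0.58) and for blood (0.35). For fibroblasts knockout heart 3 was then level with it (0.64 in both). The macrophage markers Cd68, Csf1r, Adgre1, C1qa, C1qb and Mrc1 summed to 214, 72.1 and 117 CPM in knockout hearts against 117, 152 and 89.2 CPM in wild-type hearts, with all 6 above the test's minimum count and none called. The general leukocyte markers Ptprc, Cd52, Coro1a and Laptm5 summed to 49.9, 22.6 and 26.4 CPM in knockout hearts against 29.3, 26.2 and 22.7 CPM in wild-type hearts. Lymphocyte markers summed to 3.59, 3.997 and 1.83 CPM in knockout hearts against 4.02, 1.36 and 2.98 CPM in wild-type hearts, with 4 of 8 tested and none at 0 in every library. Fibroblast markers summed to 678, 341 and 532 CPM in knockout hearts against 406, 487 and 428 CPM in wild-type hearts. Endothelial markers summed to 616, 259 and 460.3 CPM in knockout hearts against 385, 533 and 271 CPM in wild-type hearts. Epicardial markers summed to 25.7, 2.79 and 13.3 CPM in knockout hearts against 9.43, 4.02 and 4.45 CPM in wild-type hearts. The part of these cells in the ratios was not tested. In whole hearts, fewer cells of a type and less RNA per cell cannot be told apart. Psmb11, the form of the thymus cortex, had 0 reads in all 6 hearts, and of the thymic epithelium markers Foxn1 was at 0 and Krt5 reached at most 0.367 CPM in knockout and 0.358 CPM in wild-type hearts.

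Genes that work with the immunoproteasome gave 0 calls among 18 tested, where 0.00689% of all tested genes were called. Of the 18, 12 were above 0 and 6 below, beside 52.3% of all genes above 0, and their median log2 fold change was 0.03. The list held the peptide transporter, MHC class I chains and loading factors and their interferon control. Nlrc5, the transactivator of MHC class I genes, had its smallest p, at 3.69, 2.55 and 3.14 CPM in knockout hearts against 2.28, 1.62 and 1.85 CPM in wild-type hearts. The knockout values all lay above the wild-type values, as in 2.18% of all genes, but the difference did not pass (log2 fold change 0.71, SE 0.23, unadjusted p = 0.0179, adjusted p = 1, edgeR). Tap1, a chain of the peptide transporter that lies head to head with Psmb9, stood at 14.5, 5.93 and 7.78 CPM in knockout hearts against 7.94, 6.84 and 5.82 CPM in wild-type hearts. Knockout heart 1 was the highest for Tap1 and some other genes of the list, but not for all. H2-K1, for one, was highest in wild-type heart 1 and Calr in wild-type heart 3.

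The 6 ATPases of the regulatory particle had log2 fold changes from -0.13 to -0.05, all with intervals inside a 2-fold difference. Psmc3, the most abundant, stood at 190, 334 and 210 CPM in knockout hearts against 252, 215 and 337 CPM in wild-type hearts (chromosome 2, 91054009 to 91066369, plus strand; log2 fold change -0.13, SE 0.27). Psmc1, with the smallest p of the ring, stood at 119, 147 and 118 CPM in knockout hearts against 129, 129 and 146 CPM in wild-type hearts (chromosome 12, 100110154 to 100123405, plus strand; log2 fold change -0.07, SE 0.15). Knockout heart 2 and wild-type heart 3 were the highest pair for all 6, by little in Psmc5 (83.8, 99.1 and 85.6 CPM in knockout against 90.8, 88.2 and 100.3 CPM in wild-type hearts) and by much in Psmc3. Every adjusted p was 1 in edgeR.

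The 14 non-ATPase genes had log2 fold changes from -0.10 to 0.10, all with intervals inside a 2-fold difference. Psmd5, a chaperone in the assembly of the particle's base, had the smallest p, at 18.2, 20.2 and 18.7 CPM in knockout hearts against 17.3, 17.5 and 18.7 CPM in wild-type hearts (chromosome 2, 34849734 to 34874968, minus strand; log2 fold change 0.10, SE 0.13, unadjusted p = 0.468). Psmd2, the most abundant, is the scaffold on which ubiquitin receptors dock. It stood at 245, 190.1 and 234 CPM in knockout hearts against 217, 269 and 188 CPM in wild-type hearts (chromosome 16, 20651652 to 20663414, plus strand; log2 fold change -0.01, SE 0.19). Here knockout heart 2 and wild-type heart 3 were the lowest of the 6, where they were the highest for the core. The ubiquitin receptor Psmd4 and the deubiquitinase Psmd14 followed the core, with Psmd14 at 44.5, 69.5 and 41.1 CPM in knockout hearts against 48.9, 40.1 and 66.9 CPM in wild-type hearts.

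Among the activators, Psme4, the large cap that opens the barrel without ubiquitin, was the most abundant member of all in CPM. It stood at 316, 232 and 322 CPM in knockout hearts against 296, 364 and 217 CPM in wild-type hearts (chromosome 11, 30771726 to 30880361, plus strand; log2 fold change -0.01, SE 0.23), again with knockout heart 2 and wild-type heart 3 the lowest. Psme1 and Psme2, the interferon-induced cap that pairs with the immunoproteasome, had log2 fold changes of -0.04 (SE 0.21) and -0.0081 (SE 0.30). Psme2 stood at 39.8, 72.2 and 40.6 CPM in knockout hearts against 49.0, 37.6 and 66.8 CPM in wild-type hearts. Psme2b, an intronless copy of Psme2, had the smallest p of the group at 2.75, 4.65 and 2.23 CPM in knockout hearts against 3.42, 2.61 and 3.01 CPM in wild-type hearts (chromosome 11, 48945354 to 48946190, minus strand; log2 fold change 0.08, SE 0.30), and reads may be split between the copies. Psme3, the nuclear cap, had the lowest within-group SD of the tested members, at 63.7, 59.0 and 57.4 CPM in knockout hearts against 58.6, 63.1 and 60.1 CPM in wild-type hearts. The inhibitor Psmf1 had a log2 fold change of 0.0096 (SE 0.14).

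The assembly chaperones Psmg1 to Psmg4, which build the alpha ring, were tested at low levels. Psmg1, with the smallest p, stood at 14.0, 20.7 and 15.5 CPM in knockout hearts against 18.01, 15.7 and 23.4 CPM in wild-type hearts (chromosome 16, 95979933 to 95990960, minus strand; log2 fold change -0.19, SE 0.21, unadjusted p = 0.407). Psmg2, its partner and the most abundant, stood at 19.5, 21.5 and 18.9 CPM in knockout hearts against 19.9, 19.3 and 22.8 CPM in wild-type hearts (chromosome 18, 67641599 to 67654162, plus strand; log2 fold change -0.05, SE 0.14). Psmg3 and Psmg4 stood at -0.03 (SE 0.33) and 0.03 (SE 0.38) on the log2 scale of the difference.

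The median within-group SD of the members was 0.32 on the log2 scale, and the log2 fold changes ran from -0.29 to 0.20. In Psmd5 the log2 fold change, at 0.10, exceeded the within-group SD of 0.069. The summed level of the 14 core genes of the standard barrel, without Psma8, was 1211, 2068 and 1226 CPM in knockout hearts against 1440, 1234 and 1998 CPM in wild-type hearts. The summed level of the 20 ATPase and non-ATPase genes was 1769, 2155 and 1775 CPM in knockout hearts against 1880, 1877 and 2126 CPM in wild-type hearts. Knockout heart 2 and wild-type heart 3 both stood above the other 4 hearts for 38 of 48 tested proteasome genes, beside 29.4% of all genes, and both below for 6, beside 29.0%. The pair was known to stand apart from earlier results of these data, so that these shares describe it and test nothing. All 14 core genes, all 6 ATPases and all 4 assembly chaperones were among the 38, with 9 of 14 non-ATPase genes, Psma8, Psmb9, Psmb10, Psme1 and Psme2. The 6 genes with both hearts lowest were Psmd1, Psmd2, Psmd3, Psmd11, Psme4 and Psmf1, and the 4 with neither order were Psmb8, Psmd5, Psme2b and Psme3.

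**Figure D3:**
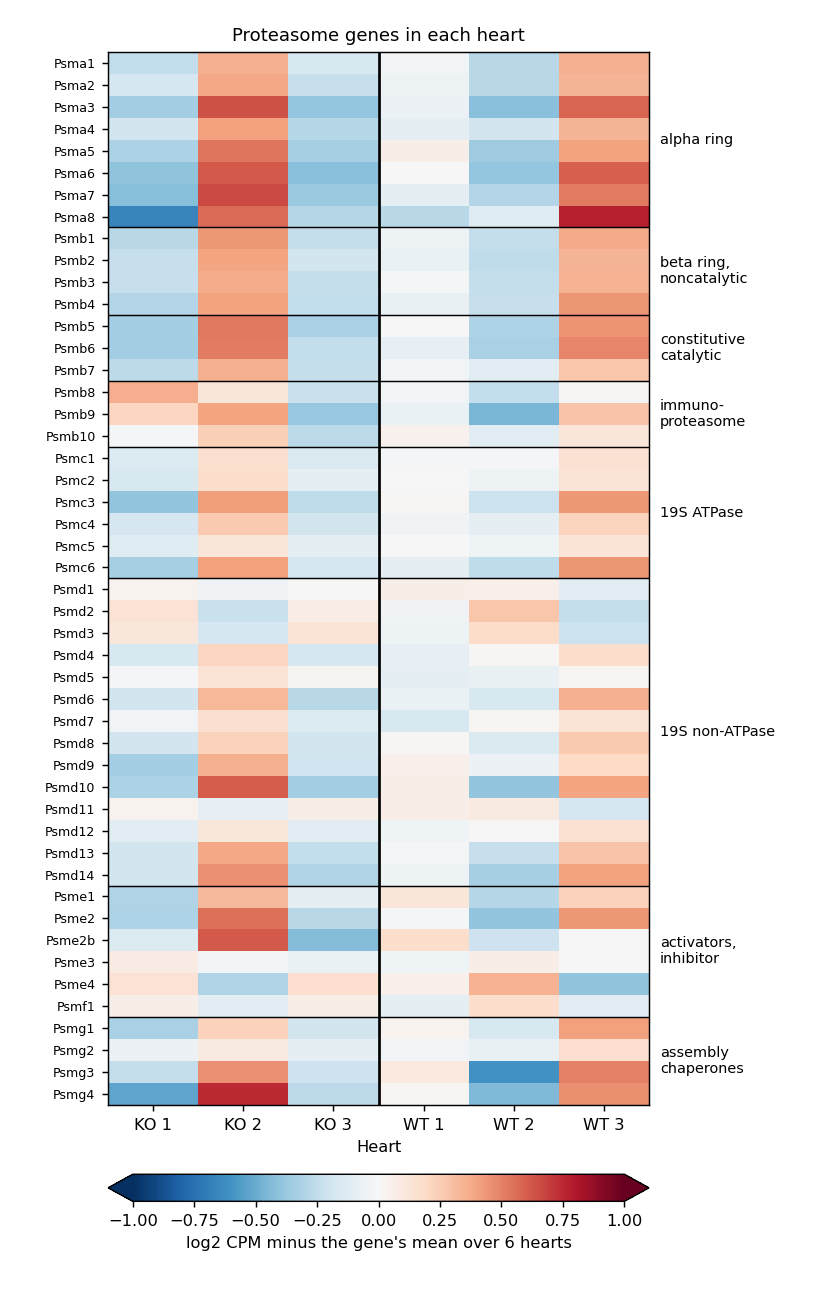
Log2 CPM of each tested proteasome gene (rows, by class) minus its own mean over the 6 hearts, for the 3 knockout and the 3 wild-type hearts (columns). Knockout heart 2 and wild-type heart 3 are red across the core and ATPase rows, and turn blue in rows such as Psmd2 and Psme4.

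The spread within a genotype differed by class. Its median, as the within-group SD on the log2 scale, was 0.37 over the 14 core genes and 0.20 over the 20 regulatory genes, beside 0.29 over all tested genes. Psma6 had the highest within-group SD of the core genes, at 0.55, and Psme3 the lowest of all tested members, at 0.066. As the ratio of the highest to the lowest heart, the span was 2.05 for Psma6 and 1.11 for Psme3. On the log2 scale, the core genes' median deviation from each gene's mean was -0.29, 0.42 and -0.25 in knockout hearts and -0.05, -0.27 and 0.39 in wild-type hearts. For the regulatory genes it was -0.16, 0.19 and -0.15 in knockout hearts and -0.03, -0.05 and 0.17 in wild-type hearts.

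The order of the members by heart went along with transcript length. The 6 genes that were lowest in knockout heart 2 and wild-type heart 3 have principal transcripts of 2148 bases or more, up to 6491 bases in Psme4, against a median of 1162.5 bases in the core genes. Across the 48 tested proteasome genes, the rank correlation of length with the deviation was 0.47, -0.55 and 0.51 in knockout hearts and -0.16, 0.57 and -0.51 in wild-type hearts. The genes share the same libraries and scaling. Of all 14508 tested genes, 13100 (90.3%) had a principal transcript length, and the others are left out here. Of these 13100, 1782 were at or below 1435 bases, the members' median. Their median deviations were -0.23, 0.34 and -0.22 in knockout hearts and -0.05, -0.20 and 0.33 in wild-type hearts. The 24 proteasome genes of that length had -0.26, 0.40 and -0.25 in knockout hearts and -0.01, -0.26 and 0.35 in wild-type hearts. Above that length the 2 sets went opposite ways, with 0.17 in knockout heart 2 and 0.15 in wild-type heart 3 over 24 proteasome genes, and -0.08 in each of these hearts over 11318 genes. The 2 sets were not matched for length above the cut, so that this contrast may reflect their lengths, which was not tested. Psma2 and Psma3, with principal transcripts of 2911 and 2846 bases, stayed with the core all the same, Psma3 at 74.1, 147 and 72.2 CPM in knockout hearts against 90.6, 70.9 and 141 CPM in wild-type hearts. Both have other transcripts, so that these lengths may not be those of the RNA present. Outside the core, Psmd9 (2597 bases) and Psmc6 (2234 bases) were likewise highest in knockout heart 2 and wild-type heart 3. Psmd9 shares 25.5% of its exon bases with a noncoding gene on the other strand, so that its reads there cannot be assigned. Psmd5, at 4397 bases, had neither order.

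**Figure D4:**
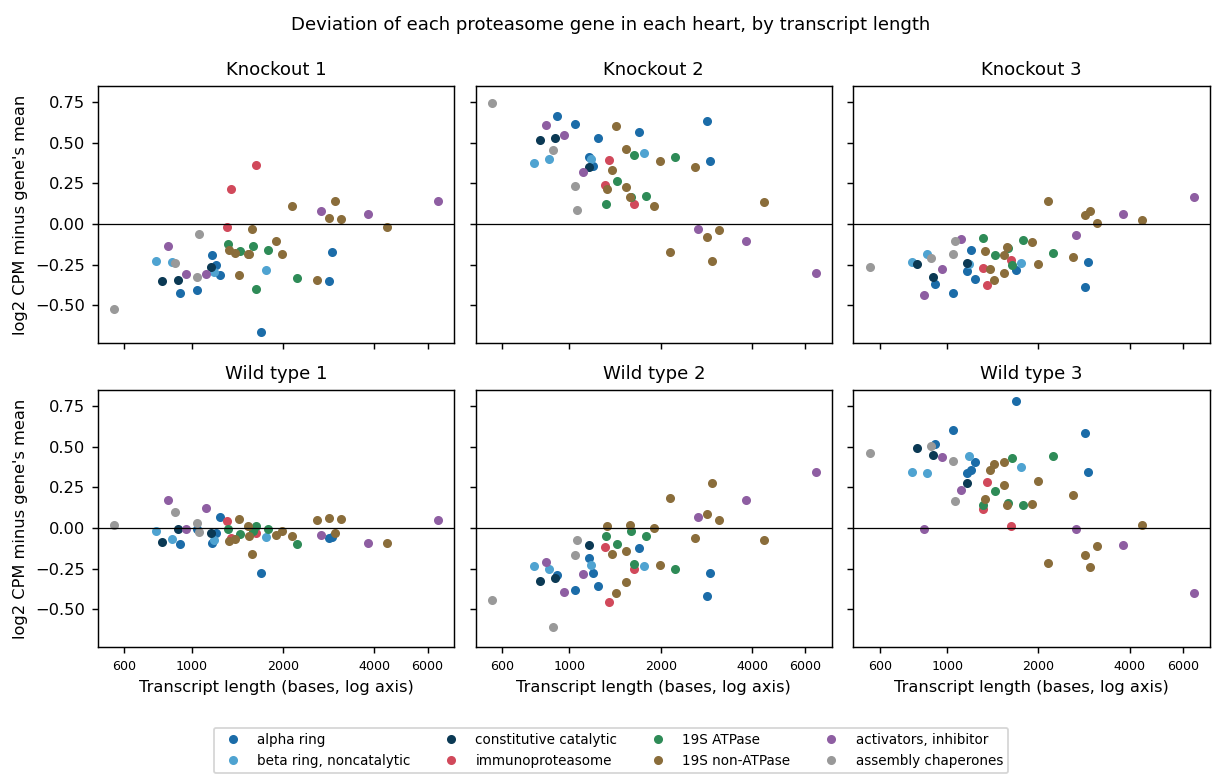
Deviation of each of 48 tested proteasome genes from its mean over 6 hearts (y axis, log2 CPM) against the length of its principal transcript (x axis, bases on a log axis), 1 panel a heart, with knockout hearts above and colours by class. Short transcripts are high in knockout heart 2 and wild-type heart 3 and low in knockout hearts 1 and 3 and wild-type heart 2, and wild-type heart 1 is nearly flat.

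Per kilobase of transcript, the 3 cutting genes of the standard barrel were among the 6 highest members. Averaged over 6 hearts, Psmb6 was the highest member at 162 CPM per kilobase, followed by Psmc3 at 157, Psma6 at 135, Psma7 at 131, Psmb7 at 130 and Psmb5 at 128, and the ranges of neighbours over the hearts overlapped. The core genes ran from 33.4 to 162 CPM per kilobase with a median of 101, and the ATPases from 46.3 to 157 with a median of 63.2. The non-ATPase genes ran from 4.20 to 75.6 with a median of 45.8, and the lowest of them were Psmd5, Psmd9 (6.37) and Psmd10 (10.1), chaperones of base assembly that leave the finished particle. The chaperones of the alpha ring were likewise low, at 6.19 to 19.2. The immunoproteasome genes lay at 5.19 (Psmb9), 7.30 (Psmb8) and 26.1 (Psmb10), and Psme1, at 107, was the highest of the activators. The values use the whole count of a gene over 1 principal transcript, so that a gene with other transcripts, such as Psma2 and Psma3, may be understated. The bases that Psmd9 shares with another gene limit its value here as well.

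**Figure D5:**
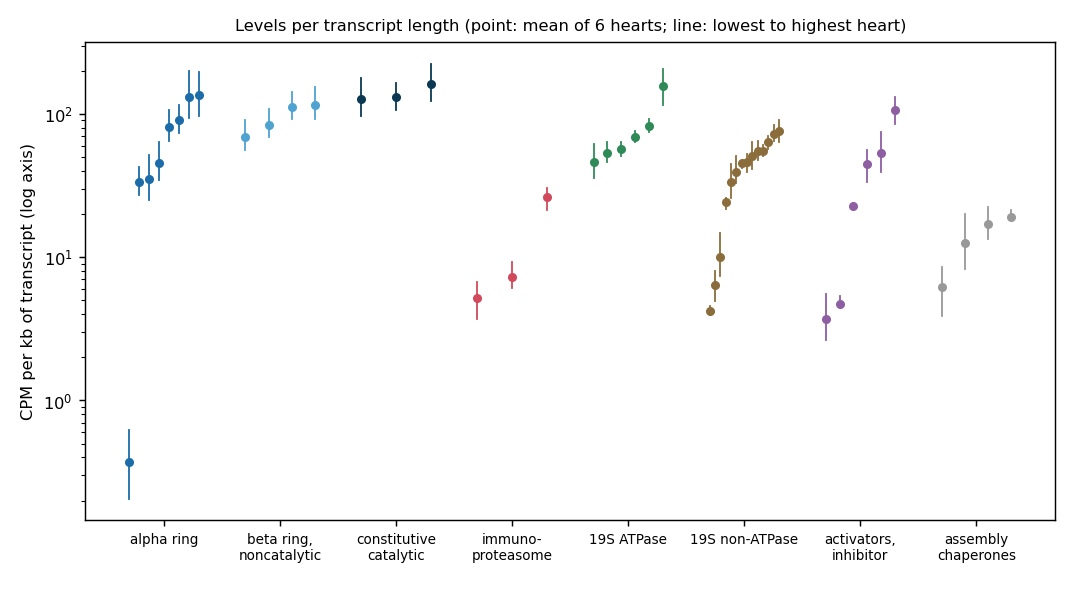
CPM per kilobase of principal transcript on a log axis for each tested proteasome gene, by class, with the point at the mean of 6 hearts and the line from the lowest to the highest heart. The constitutive catalytic genes lie at 128 to 162 and the immunoproteasome genes at 5.19 to 26.1.

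Partners and regulators outside the family gave 0 calls among 29 tested genes, where 0.00689% of all tested genes were called. Of the 29, 14 were above 0 and 15 below, beside 52.3% of all genes above 0, and their median log2 fold change was -0.02. Paaf1 was not analysed here. Ngly1, the enzyme that strips sugars from Nfe2l1 on its way to the nucleus, had the smallest p, at 28.6, 32.9 and 29.7 CPM in knockout hearts against 33.9, 33.0 and 33.6 CPM in wild-type hearts. All 3 knockout values lay below the wild-type values by a narrow margin, as in 1.90% of all genes (log2 fold change -0.14, SE 0.12, unadjusted p = 0.296). Nfe2l1, the activator of proteasome genes, stood at 581, 451 and 596 CPM in knockout hearts against 447, 538 and 434 CPM in wild-type hearts, with overlap between the groups (log2 fold change 0.20, SE 0.18). Vcp, the unfoldase that hands substrates to the proteasome, stood at 474, 263 and 484 CPM in knockout hearts against 386, 486 and 256 CPM in wild-type hearts, lowest in knockout heart 2 and wild-type heart 3. Pomp, the maturation factor of the core, went the other way with 70.9, 104 and 69.2 CPM in knockout hearts against 79.7, 70.6 and 109 CPM in wild-type hearts, as the core genes did.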

How the data were processed

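RNA of 6 mouse hearts was sequenced by the authors from libraries made with the NEBNext Ultra II RNA kit. The deposited values are raw counts per Ensembl gene. The submitters' processing notes name STAR, featureCounts, Subread 1.5.2, DESeq2 and the build GRCm38.p6. The sources used here do not give the annotation release, strand setting or treatment of shared reads. Reads carry no molecular identifiers, and the SEs and intervals rest on the fitted spread between hearts of a genotype. Symbols, coordinates and transcript lengths came from GENCODE M21 on GRCm38, which held 49056 of 49315 IDs; the length is that of the longest best-ranked principal transcript.

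Genes were filtered with filterByExpr (minimum count 10, total 15), scaled by TMM and tested with edgeR 4.0.16 (R 4.3.3) by the quasi-likelihood test, with Benjamini-Hochberg adjustment over all 14508 genes and a threshold of 0.05. DESeq2 1.42.0 and limma 3.58.1 (voom) were alternatives, with other scalings and filters, a length offset and each library left out. The length offset used the bases covered by all annotated exons of a gene, not the principal transcript length used elsewhere. Ratios used exact permutation tests (scipy 1.17.1). Deviations are log2 CPM with a prior count of 2, minus the gene's mean. Nothing in the labels says more than 3 hearts a group, so p-values measure the spread between these samples.

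Values in every heart are given for the cutting subunits, for the smallest p and the highest mean CPM in each class and for the smallest p among the partners and regulators and among the MHC class I genes; cell type markers are given as sums, and other genes were chosen after their values were seen. The members and lists were chosen with earlier results of these data known. One motif that was searched is not reported here.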

Additional observations from a re-analysis of the deposited data

How the results depend on the processing

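No member was called under any of the settings run, and the smallest adjusted p of a member was 0.613 over all of them. Genes called numbered 0 with the replicate block and 2 with wild-type heart 3 and knockout heart 2 both left out, against 1, and 0 to 1 with 1 heart left out. Members above 0 numbered 16 by library size alone, 19 with no filter, 17 with the length offset and 6 with both hearts left out, and 8 to 37 with 1 heart left out, when their median ran from -0.24 to 0.12. Replicate numbers did not pair the hearts (correlations of same-numbered hearts 0.184, -0.649 and -0.399), and the replicate block left 10 members above 0 with a median of -0.05.

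Of 152 fold changes of 17 named members, 143 kept their direction. The 9 that did not were Psmd2 at 0.0082 and Psme4 at 0.0053 by library size, Psmd2 at 0.0024 and Psme4 at 0.00026 with no filter, Psme4 at 0.0057 with the replicate block and 0.0018 in limma-voom, Psmb10 at 0.014 and Psmg2 at 2.8e-05 with the length offset, and Psme2b at -0.28 with both hearts left out. With 1 heart left out, 29 of 102 reversed. The ranges were Psma6 -0.54 to 0.20, Psma8 -0.74 to 0.15, Psmb4 -0.35 to 0.14, Psmb5 -0.41 to 0.16, Psmb6 -0.36 to 0.23, Psmb7 -0.31 to 0.046, Psmb8 0.05 to 0.34, Psmb9 -0.014 to 0.36, Psmb10 -0.16 to 0.094, Psmc1 -0.18 to -0.02, Psmc3 -0.42 to 0.066, Psmd2 -0.12 to 0.13, Psmd5 0.05 to 0.13, Psme2b -0.27 to 0.29, Psme4 -0.19 to 0.17, Psmg1 -0.37 to -0.01 and Psmg2 -0.11 to 0.027. The ratios ran from -0.016 to 0.54 for Psmb8 over Psmb5, -0.023 to 0.33 for Psmb9 over Psmb6 and -0.042 to 0.14 for Psmb10 over Psmb7. The cause was not tested. Depth limits Psma8, at 15 to 26 reads in knockout and 15 to 35 in wild-type hearts.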

Other observations

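Psmc3ip, the recombination factor that matches the family by name alone, held 101, 92 and 103 reads in knockout hearts against 62, 86 and 127 in wild-type hearts. Its log2 fold change was 0.03 (SE 0.29).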
